A study of Mus musculus with 27 samples.

Results

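The genes described here are 10 genes of cellular iron handling, taken by symbol from the 26802 rows of a count table of mouse T cells: Tfrc, Slc11a2, Steap3, Fth1, Ftl1, Ncoa4, Hmox1, Slc40a1, Ireb2 and Slc25a37. All 10 have a row in the table. RNA was sequenced from 27 libraries, 3 in each of 9 groups defined by genotype, T cell subset and culture. The 4 resting groups were WT CD4+, WT CD8+, Raptor KO CD4+ and Raptor KO CD8+ cells kept for 48 h with the survival cytokine IL-7 at 5 ng/ml. The 4 matching stimulated groups spent the same 48 h on plates coated with anti-CD3 and anti-CD28 antibodies (10 µg/ml), with no IL-7 named in the labels, so every stimulation difference below also contains the absence of IL-7. The ninth group was stimulated Rictor KO CD8+ cells. All mice were B6: the WT mice are named B6 wt with no transgene, and the mutants carry Tg(Cd4-cre) with floxed Rptor (fl/fl) or floxed Rictor (fl/fl). The Cd4 promoter drives Cre in developing T cells, before the CD4 and CD8 lineages part, so deletion is directed to T cells of both subsets. A WT group carrying Cre alone was not analysed here. Lymph node and spleen cells were pooled before magnetic sorting, and live cells were sorted after culture. Whether separate animals stand behind the 3 libraries of a group is not stated in the labels. The p-values thus reflect sample-to-sample spread, part of which may be technical.

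Cells take up iron mainly as transferrin bound to the transferrin receptor, encoded by Tfrc. In the endosome the reductase Steap3 converts the iron, and the transporter DMT1, encoded by Slc11a2, moves it to the cytosol. Surplus iron is stored inside ferritin, a shell of heavy (Fth1) and light (Ftl1) chains, from which Ncoa4 releases it by delivering ferritin to lysosomes. Hmox1 frees iron from haem, Slc40a1 (ferroportin) exports it, and Slc25a37 (mitoferrin) carries it into mitochondria. A pair of RNA-binding proteins, 1 of them encoded by Ireb2, respond to cytosolic iron and bind a hairpin called the iron-responsive element. Bound in a 3′ UTR they protect the mRNA from decay, and bound in a 5′ UTR they block translation. Raptor and Rictor are the defining subunits of the kinase complexes mTORC1 and mTORC2, which drive growth of activated T cells.

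The hairpins are shown because they separate the members that can be controlled through mRNA stability from those controlled through translation. These counts give mRNA levels, which stability can alter along with synthesis, and neither stability nor translation was measured. A script searched the sense strand of the GENCODE M21 transcripts (GRCm38) for a C, any 5 bases, the loop CAGTGN and 5 bases pairing with those before the loop, with at most 1 mismatch. Such a match was found in a UTR of 5 of the 10 members, against 5.51% of 21951 protein-coding genes. In each sequence below, written 5′ to 3′ on the strand of the mRNA, capitals mark the 6 bases of the loop.
Tfrc 3′ UTR, number 1 (chr16:32631219-32631247, + strand): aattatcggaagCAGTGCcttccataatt
Tfrc 3′ UTR, number 2 (chr16:32631598-32631626, + strand): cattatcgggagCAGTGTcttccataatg
Tfrc 3′ UTR, number 3 (chr16:32631663-32631691, + strand): ctatatcggagaCAGTGAtctccatatgt
Tfrc 3′ UTR, number 4 (chr16:32631710-32631738, + strand): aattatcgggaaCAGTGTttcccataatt
Slc11a2 3′ UTR (chr15:100395153-100395181, - strand): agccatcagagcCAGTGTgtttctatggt
Fth1 5′ UTR (chr19:9982732-9982760, + strand): ttcctgcttcaaCAGTGCttgaacggaac
Ftl1 5′ UTR (chr7:45459779-45459807, - strand): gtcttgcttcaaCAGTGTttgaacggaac
Slc40a1 5′ UTR (chr1:45925465-45925493, - strand): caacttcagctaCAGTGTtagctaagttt
The stems of the ferritin pair are alike, and the 4 Tfrc hairpins lie within 1 3′ UTR. The Slc11a2 match has 1 mismatch in its stem and is present in 1 of the 7 coding transcripts of the gene. A count per gene does not separate the Slc11a2 transcripts with this hairpin from those without it. The antioxidant response element TGANNNNGC was searched on both strands of RefSeq promoter sequences around the transcription start (GRCm38.p6). It was present for Steap3 and Ncoa4 of the 6 members with an entry, and 41.3% of the 32851 promoters hold it. Hmox1, Slc11a2, Slc40a1 and Slc25a37 had no entry among these promoters and were not searched. Sequence farther from the start was searched for no member.

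Libraries held 8640699 to 16817347 counts, of which the 45S ribosomal precursor Rn45s took 81.1% to 88.4%. It was left out, and values below are CPM, counts scaled to the remaining total of each library after TMM normalization. Protein-coding genes had 410808 to 1518324 counts per library, so the members rest on modest numbers: the median count per library was 546 for Tfrc, 171 for Fth1, 98 for Ireb2, 55 for both Ftl1 and Slc25a37, 46 for Slc11a2, 31 for Ncoa4 and 1 for Hmox1. The labelled subsets carried their markers: Cd4 was 175 to 301 CPM in the means of the CD4+ groups and 0.771 to 2.76 CPM in those of the CD8+ groups, and Cd8a was 97.6 to 334 CPM against 0.662 to 3.10 CPM. Rptor, counted over the whole gene, was lower in each Raptor KO group than in the matching WT group, by as little as 19.8 ± 2.7 against 23.5 ± 5.3 CPM (mean ± SD, n = 3) in stimulated CD8+ cells. Rictor was 39.1 ± 1.6 CPM in the Rictor KO cells and 45.05 ± 7.2 CPM in WT. Reads from exons outside a floxed part stay in such a count, so it is a weak check of the deletions. Of 14 myeloid markers 11 had a row, and their sum was 14.9 to 58.6 CPM, most of it Ctss. Lyz2, Adgre1, Itgam, Cybb, Fcer1g, Tyrobp and Cd163 were at 0 in at least 1 group, though Lyz2 had a highest group mean of 3.14 CPM. The others were above 0 in every group mean: Cd68 at 1.26 to 8.19 CPM, Csf1r at 0.320 to 3.27 CPM and Mpeg1 at 0.0917 to 2.50 CPM. Of 10 erythroid markers 8 had a row, summing to 1.13 to 37.4 CPM.

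Of the 10 members, 8 passed the filter on low counts and were tested among 10493 genes with edgeR's quasi-likelihood test, Benjamini-Hochberg adjusted over all of them at 0.05. In WT cells stimulation changed 3 of the 8 in CD4+ cells (2 higher, 1 lower), where 64.9% of all tested genes changed. It changed 5 in CD8+ cells (2 higher, 3 lower), where the share of all genes was 62.8%. In Raptor KO cells it changed 5 in CD4+ (2 higher, 3 lower) and 3 in CD8+ cells (1 higher, 2 lower), beside 52% and 55.6% of all genes. With 8 members these counts do not stand out from those shares. The first 3 members described take iron up.

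Tfrc (chr16:32608920-32632794, + strand), the receptor that brings in transferrin iron, rose in all 4 stimulation comparisons. In WT CD4+ cells the resting libraries read 20.2, 19.4 and 25.7 CPM and the stimulated ones 665, 690 and 739 CPM. In WT CD8+ cells they read 31.9, 31.2 and 61.6 CPM at rest and 763, 651 and 725 CPM after stimulation. No resting library of any genotype exceeded 61.6 CPM, and no stimulated library was below 351 CPM. The log2 fold change was 4.99 ± 0.27 (SE; 31.9-fold) in CD4+ cells and 4.09 ± 0.26 (17.0-fold) in CD8+ cells, with adjusted p of 5.89e-14 and 1.21e-12. In bulk RNA, fewer cells expressing a gene and less RNA of it per cell cannot be told apart, here and below. Per kilobase of annotated exon, Tfrc went from 3.51 ± 0.56 to 113 ± 6.1 CPM/kb in WT CD4+ cells. Fth1 over the same change went from 28.8 ± 3.8 to 22.7 ± 2.2 CPM/kb, so the order of the transferrin receptor and ferritin heavy chain mRNAs was exchanged. The exon length merges all annotated transcripts, and a gene used mainly in a short form is understated on this scale.

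**Figure D1:**
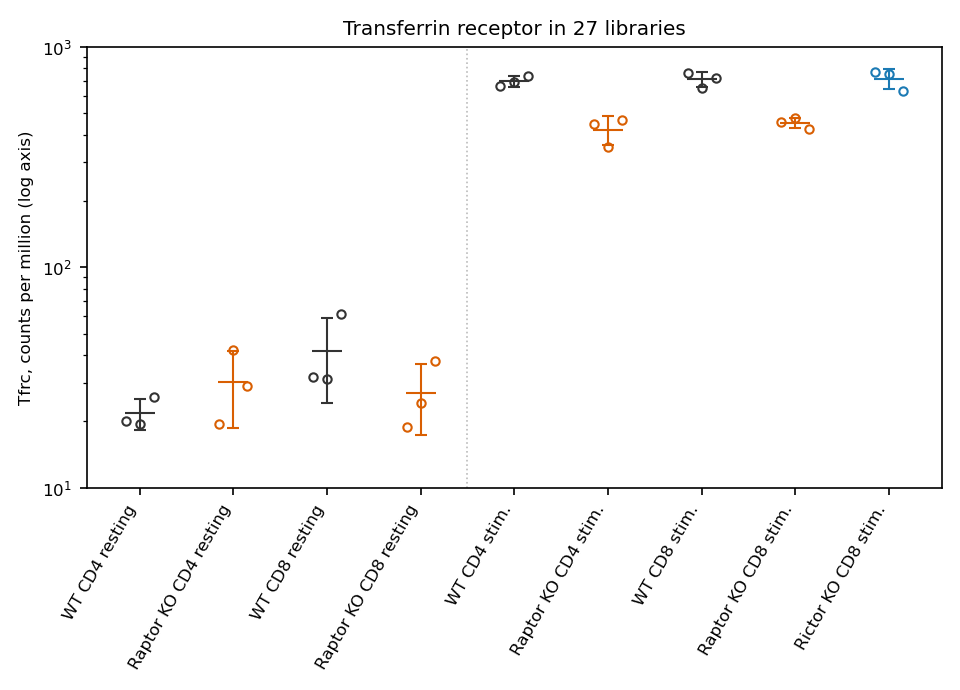
Tfrc in CPM (log axis) in each of the 27 libraries (open circles) by group, with the mean and SD of 3 as bars. All stimulated libraries (351 to 772 CPM) lie above all resting ones (18.9 to 61.6 CPM), and the 6 stimulated Raptor KO libraries (351 to 475 CPM) lie below the other 9 stimulated ones (634 to 772 CPM).

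Raptor-deleted cells also induced Tfrc, and their stimulated libraries read lower than those of WT. Stimulated Raptor KO CD4+ libraries read 448, 351 and 468 CPM, and stimulated Raptor KO CD8+ libraries 457, 475 and 426 CPM. Every one of these 6 lay below every stimulated WT and Rictor KO library. At rest the Raptor KO libraries read 19.4, 42.2 and 28.9 CPM in CD4+ and 18.9, 24.3 and 37.4 CPM in CD8+ cells, overlapping WT.

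Between stimulated Raptor KO and WT cells, 2 of the 8 tested members were lower and none higher in CD4+ cells, with 17.4% of all genes changed, and 2 were lower and none higher in CD8+ cells, with 11.7% changed. The median log2 fold change of the 8 was -0.32 in CD4+ and -0.25 in CD8+ cells, beside 0.04 and 0.03 over all genes. Hmox1 (-1.35 in CD4+ and -3.06 in CD8+ cells) is among the 8 and passed the filter only through stimulated WT and Rictor KO libraries. Both medians and the CD8+ count depend in part on that selection. Tfrc was one of the CD4+ pair, at -0.73 ± 0.22 (1.65-fold lower, adjusted p = 0.0274). In CD8+ cells the difference was of like size, -0.66 ± 0.22 (1.57-fold), but its adjusted p was 0.0586 and it did not pass. The 2 differences were not separable from each other: the interaction of Raptor with subset in stimulated cells was 0.07 (95% interval -0.58 to 0.72). The CD4+ call rests on the number of libraries. It was lost without WT library 2 (adjusted p = 0.0614) or 3 (0.0937), or Raptor KO library 1 (0.0623) or 2 (0.118). The CD8+ difference passed under 7 other settings, among them DESeq2 (-0.71, adjusted p = 0.00707) and limma-voom (-0.65, adjusted p = 0.00117). The protein-coding share of counts other than Rn45s moved with the same comparison: it was 33.4% to 46.5% in stimulated Raptor KO and 38.9% to 63.6% in WT CD4+ libraries, and 31.8% to 47.8% against 49.9% to 62.5% in CD8+ libraries. Its part in the result was not tested beyond a fit on protein-coding genes alone, in which Tfrc differed in CD8+ cells by -0.65 (adjusted p = 0.0145). Summed NK cell markers also moved, at 13.8 to 22.1 CPM in stimulated WT and 25.9 to 53.8 CPM in stimulated Raptor KO CD8+ libraries. Nearly all of that sum is Eomes (566 counts over all libraries), which CD8+ T cells also express, while Ncr1, Klrb1c, Klre1 and Klra8 had group means of at most 1.72 CPM. Their part in the CD8+ results was not tested.

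Whether Raptor changed the induction itself was tested by the interaction of deletion with stimulation. In CD4+ cells 1 of the 8 members passed, Tfrc, while 5.82% of all genes did. Its log2 rise was 3.79 ± 0.26 in Raptor KO against 4.99 ± 0.27 in WT cells, a difference of -1.20 ± 0.35 (adjusted p = 0.0403). In CD8+ cells none of the 8 passed (1 at an unadjusted p under 0.05, 0 by DESeq2 and 0 by limma-voom), with 2.89% of all genes passing. There the rise of Tfrc was 4.09 in both genotypes, and the difference was 0.01 (95% interval -0.59 to 0.60). The CD4+ interaction also takes in the resting levels, 30.2 ± 11.5 CPM in Raptor KO and 21.7 ± 3.4 CPM in WT, which did not differ beyond error (0.48 ± 0.27, adjusted p = 0.721). Without Raptor KO resting library 2, at 42.2 CPM, it fell to -0.86 (adjusted p = 0.127). The Tfrc interaction held in 13 of 22 alternatives, with adjusted p up to 0.307. Its other misses included those without WT resting library 1 (0.0891) or 2 (0.0937) or WT stimulated library 2 (0.0674) or 3 (0.0972). They also included those without Raptor KO resting library 3 (0.0608) or Raptor KO stimulated library 1 (0.0686) or 2 (0.0928).

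In Rictor-deleted cells Tfrc was not separable from WT: stimulated Rictor KO CD8+ libraries read 772, 752 and 634 CPM. Against WT no member passed edgeR's test (1 at an unadjusted p under 0.05, 0 by DESeq2 and 0 by limma-voom), and 0.162% of all genes did. The Tfrc difference was 0.01, with a 95% interval from -0.45 to 0.47. Against Raptor KO CD8+ cells 4 members were higher in Rictor KO and none lower, where 15.3% of all genes differed, and Tfrc was among them at 0.67 ± 0.22 (adjusted p = 0.0448). All 3 Rictor KO libraries carry the library code StP219, which each other group has on 1 library. With the library code as a block the Tfrc difference was 0.49 (adjusted p = 0.171). The call held in 10 of 17 alternatives. Its other losses included those without Raptor KO library 1 (0.0932), 2 (0.0857) or 3 (0.128) or Rictor KO library 1 (0.124) or 2 (0.123).

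Slc11a2 (chr15:100387898-100425072, - strand), the transporter that moves endosomal iron to the cytosol, did not rise with stimulation. WT CD4+ libraries read 19.5, 18.7 and 23.6 CPM at rest and 21.4, 21.4 and 19.0 CPM after stimulation, with overlapping values and a log2 fold change of -0.03 ± 0.22. WT CD8+ libraries read 33.3, 42.7 and 37.2 CPM at rest and 19.7, 27.3 and 18.1 CPM after stimulation. In CD8+ cells the groups did not overlap and Slc11a2 fell by 0.82 on the log2 scale (SE 0.20, adjusted p = 0.000551). With Rn45s kept in the totals the CD8+ change was -0.07 (adjusted p = 0.8996), beside a shift of 0.75 in the median of all genes.

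Raptor-deleted cells held the lowest Slc11a2 levels of the series once stimulated. Stimulated Raptor KO CD4+ libraries read 13.7, 8.27 and 10.4 CPM and CD8+ libraries 16.7, 9.93 and 11.0 CPM. All 6 lay below all 9 stimulated WT and Rictor KO libraries (18.1 to 28.4 CPM). Compared with WT, Slc11a2 was 1.87-fold lower in CD4+ (log2 -0.90 ± 0.24, adjusted p = 0.00703) and 1.76-fold lower in CD8+ cells (-0.82 ± 0.23, adjusted p = 0.0152). The CD4+ call held under each of the 16 alternatives, with adjusted p up to 0.0474. The CD8+ call was lost without WT library 2 (0.0849) or Raptor KO library 2 (0.0913) or 3 (0.0982).

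At rest the Raptor KO libraries held 12.7, 20.9 and 21.1 CPM of Slc11a2 in CD4+ and 32.3, 32.4 and 33.0 CPM in CD8+ cells. The differences from WT were -0.19 ± 0.24 and -0.21 ± 0.21 and did not pass, though the CD8+ libraries did not overlap those of WT. Stimulation of Raptor KO cells lowered Slc11a2 by 1.43 on the log2 scale in CD8+ cells (adjusted p = 2.01e-06) and by 0.74 in CD4+ cells (adjusted p = 0.0154), where the libraries overlapped. The CD4+ call held in 10 of 16 alternatives, with adjusted p up to 0.138. Among its losses were those without Raptor KO resting library 2 (0.0967) or 3 (0.0641) or stimulated library 2 (0.0733) or 3 (0.0562). The fall in Raptor KO was not shown to be larger than in WT: the interactions were -0.72 ± 0.34 (adjusted p = 0.214) in CD4+ and -0.61 ± 0.31 (adjusted p = 0.337) in CD8+ cells. Rictor KO libraries read 20.3, 22.3 and 28.4 CPM, and Slc11a2 was 1.94-fold higher there than in Raptor KO cells (log2 0.95 ± 0.23, adjusted p = 0.00266), a call that held under each of the 17 alternatives.

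Among resting WT cells, CD8+ cells carried more of both uptake mRNAs than CD4+ cells. Of the 8 members 2 were higher in CD8+ and none lower, with 3.33% of all genes differing between the subsets. Slc11a2 was higher by 0.85 ± 0.22 (adjusted p = 0.0139) and Tfrc by 0.94 ± 0.26 (adjusted p = 0.0469). The WT CD8+ and CD4+ libraries did not overlap for either gene. In resting Raptor KO cells, where the subsets were not tested, Tfrc was 26.9 ± 9.5 CPM in CD8+ and 30.2 ± 11.5 CPM in CD4+ cells, with overlapping libraries. With the replicate number, which in these groups is also the library code, as a block the WT Tfrc difference no longer passed (0.93, adjusted p = 0.0578). The Tfrc difference leans on 1 WT CD8+ library at 61.6 CPM, and without it was 0.53 (adjusted p = 0.373). It was lost as well without WT CD4+ library 1 (0.155), 2 (0.174) or 3 (0.0560). The Slc11a2 difference was lost without WT CD4+ library 1 (0.0563) or 2 (0.0729) or WT CD8+ library 2 (0.0846). The Tfrc and Slc11a2 calls held in 9 and 12 of 16 alternatives, with adjusted p up to 0.551 and 0.603. After stimulation no member differed between WT subsets (0 at an unadjusted p under 0.05, 0 by DESeq2 and 0 by limma-voom), beside 5.18% of all genes.

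Steap3 (chr1:120190757-120272705, - strand), the endosomal iron reductase, was barely detected, with 21 counts in all 27 libraries and at most 1.78 CPM in one. It had counts in 2 of 12 resting and 8 of 15 stimulated libraries and was below the filter, so it was not tested.

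Of the ferritin genes, Fth1 moved the other way from Tfrc, and by far less. Fth1 (chr19:9980598-9985098, + strand), the heavy chain that oxidises iron for storage, fell in all 4 stimulation comparisons. With Rn45s kept in the totals its sign turned in WT CD8+ cells (0.45, adjusted p = 0.325). The Raptor KO CD8+ call was then lost (adjusted p = 0.402). Over the alternatives the WT CD4+ change came as near to 0 as -0.02, with adjusted p up to 0.963. The Raptor KO CD4+ and CD8+ calls each held in 15 of 16 alternatives, with adjusted p up to 0.0674 in CD4+ cells. In Raptor KO CD4+ cells the libraries read 121, 140 and 134 CPM at rest and 71.2, 83.4 and 81.7 CPM after stimulation, a log2 change of -0.74 ± 0.14 (adjusted p = 1.42e-05). In Raptor KO CD8+ cells they went from 107, 120 and 96.3 to 60.3, 68.5 and 68.6 CPM, a change of -0.71 ± 0.14 (adjusted p = 3.47e-05). In both subsets every stimulated library lay below every resting one.

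In WT cells the estimated fall of Fth1 was smaller. CD4+ libraries went from 115, 92.3 and 92.4 to 79.1, 70.8 and 86.4 CPM, and CD8+ libraries from 80.9, 97.7 and 89.1 to 74.5, 75.5 and 65.6 CPM. The groups did not overlap, and the changes were -0.34 ± 0.14 (adjusted p = 0.0271) and -0.31 ± 0.14 (adjusted p = 0.0446). These calls are fragile: they held in 9 and 7 of 16 alternatives, and by DESeq2 the adjusted p was 0.0722 and 0.0793. The CD4+ call was lost without resting library 1 (0.205) or stimulated library 1 (0.0696) or 2 (0.149). The CD8+ call was lost without resting library 2 (0.188) or 3 (0.0920) or any 1 of the stimulated libraries (0.0563 to 0.187). Summed myeloid markers moved with the WT changes, from 38.3 to 55.0 CPM at rest to 14.9 to 19.3 CPM in CD4+ and from 40.2 to 55.3 to 27.6 to 35.3 CPM in CD8+ libraries. In Raptor KO cells they were 45.3 to 48.1 and then 39.3 to 44.9 CPM in CD4+ and 34.8 to 58.6 and then 38.2 to 54.9 CPM in CD8+ libraries. Their part in the result was not tested further. The difference between the Raptor KO and WT falls did not pass, at -0.40 ± 0.19 (adjusted p = 0.216) in CD4+ and -0.40 ± 0.20 (adjusted p = 0.312) in CD8+ cells.

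At rest Fth1 was highest in Raptor KO CD4+ cells, at 132 ± 9.5 against 100 ± 13.3 CPM in WT, and the libraries of these groups did not overlap. No member passed between resting Raptor KO and WT cells in CD4+ (2 at an unadjusted p under 0.05, 0.143% of all genes called) or CD8+ cells (3 at an unadjusted p under 0.05, 1.12% of all genes called), and DESeq2 and limma-voom called 0 in each. The Fth1 differences were 0.40 ± 0.13 (adjusted p = 0.340) and 0.28 ± 0.14 (adjusted p = 0.505). Stimulated Raptor KO and WT cells did not differ beyond error, with 0.00 (95% interval -0.28 to 0.27) in CD4+ and -0.12 (-0.40 to 0.16) in CD8+ cells. Rictor KO CD8+ libraries read 86.9, 78.0 and 98.7 CPM, above all 3 Raptor KO libraries, a difference of 0.41 ± 0.14 (adjusted p = 0.0354). That call held in 11 of 17 alternatives, with adjusted p up to 0.184. Among its losses were those without Raptor KO library 1 (0.124), 2 (0.0600) or 3 (0.0578) or Rictor KO library 1 (0.0707) or 3 (0.137).

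Ftl1 (chr7:45457944-45459884, - strand), the ferritin light chain, passed in none of the 16 comparisons. With stimulation its log2 changes were -0.42 and -0.31 in WT CD4+ and CD8+ cells and -0.56 and -0.44 in Raptor KO CD4+ and CD8+ cells, with adjusted p from 0.0733 to 0.367. In Raptor KO CD4+ cells the change passed under 4 of 16 alternatives, and without resting library 2, at 29.4 CPM, it was -0.85 (adjusted p = 0.00392). With the compared groups alone it passed in WT CD4+ cells (-0.47, adjusted p = 0.0362) and for Rictor KO against Raptor KO (-0.66, adjusted p = 0.0207). Its highest group means were those of the Raptor KO cells at rest, 50.1 ± 17.9 CPM in CD4+ and 45.8 ± 15.3 CPM in CD8+ cells, but with a wide spread: the libraries read 60.7, 29.4 and 60.2 CPM and 61.6, 31.1 and 44.6 CPM. WT libraries read 36.9, 30.3 and 32.4 CPM and 31.9, 27.9 and 19.5 CPM. The Raptor KO value was higher than WT by 0.57 ± 0.26 in resting CD4+, 0.81 ± 0.28 in resting CD8+, 0.43 ± 0.27 in stimulated CD4+ and 0.68 ± 0.27 in stimulated CD8+ cells, with adjusted p from 0.108 to 0.604. In resting CD8+ cells the difference passed when no filter on low counts was used (0.78, adjusted p = 0.0395). Ftl1 has rows for near copies: Ftl1-ps1 held 53 counts over all libraries, Ftl2-ps 5 and Ftl1-ps2 2, against 1596 for Ftl1, and how reads shared with these copies were counted is not given in the sources used here. Gm10252 (30 counts) overlaps Ftl1 on the other strand.

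Ncoa4 (chr14:32159865-32179855, + strand), the receptor that sends ferritin to lysosomes, fell with stimulation in WT CD8+ cells, from 21.3, 23.8 and 20.7 to 17.7, 16.6 and 9.62 CPM (log2 -0.62 ± 0.25, adjusted p = 0.0287). It fell in Raptor KO CD4+ cells too, from 23.4, 24.6 and 15.6 to 13.7, 13.8 and 10.9 CPM (-0.76 ± 0.26, adjusted p = 0.0138). In WT CD4+ cells it was 17.1 ± 4.6 CPM at rest and 17.2 ± 2.9 CPM after stimulation. The WT CD8+ call held in 9 of 16 alternatives. Among its losses were those without any 1 resting library (0.0508 to 0.0919) or stimulated library 3 (-0.33, adjusted p = 0.279) and by DESeq2 (0.0581). Its sign turned with Rn45s kept in the totals (0.15, adjusted p = 0.787). The Raptor KO CD4+ call held in 12 of 16 alternatives, with adjusted p up to 0.0929. Among its losses were those without resting library 1 (0.0523) or 2 (0.0859) or stimulated library 3 (0.0805).

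**Figure D2:**
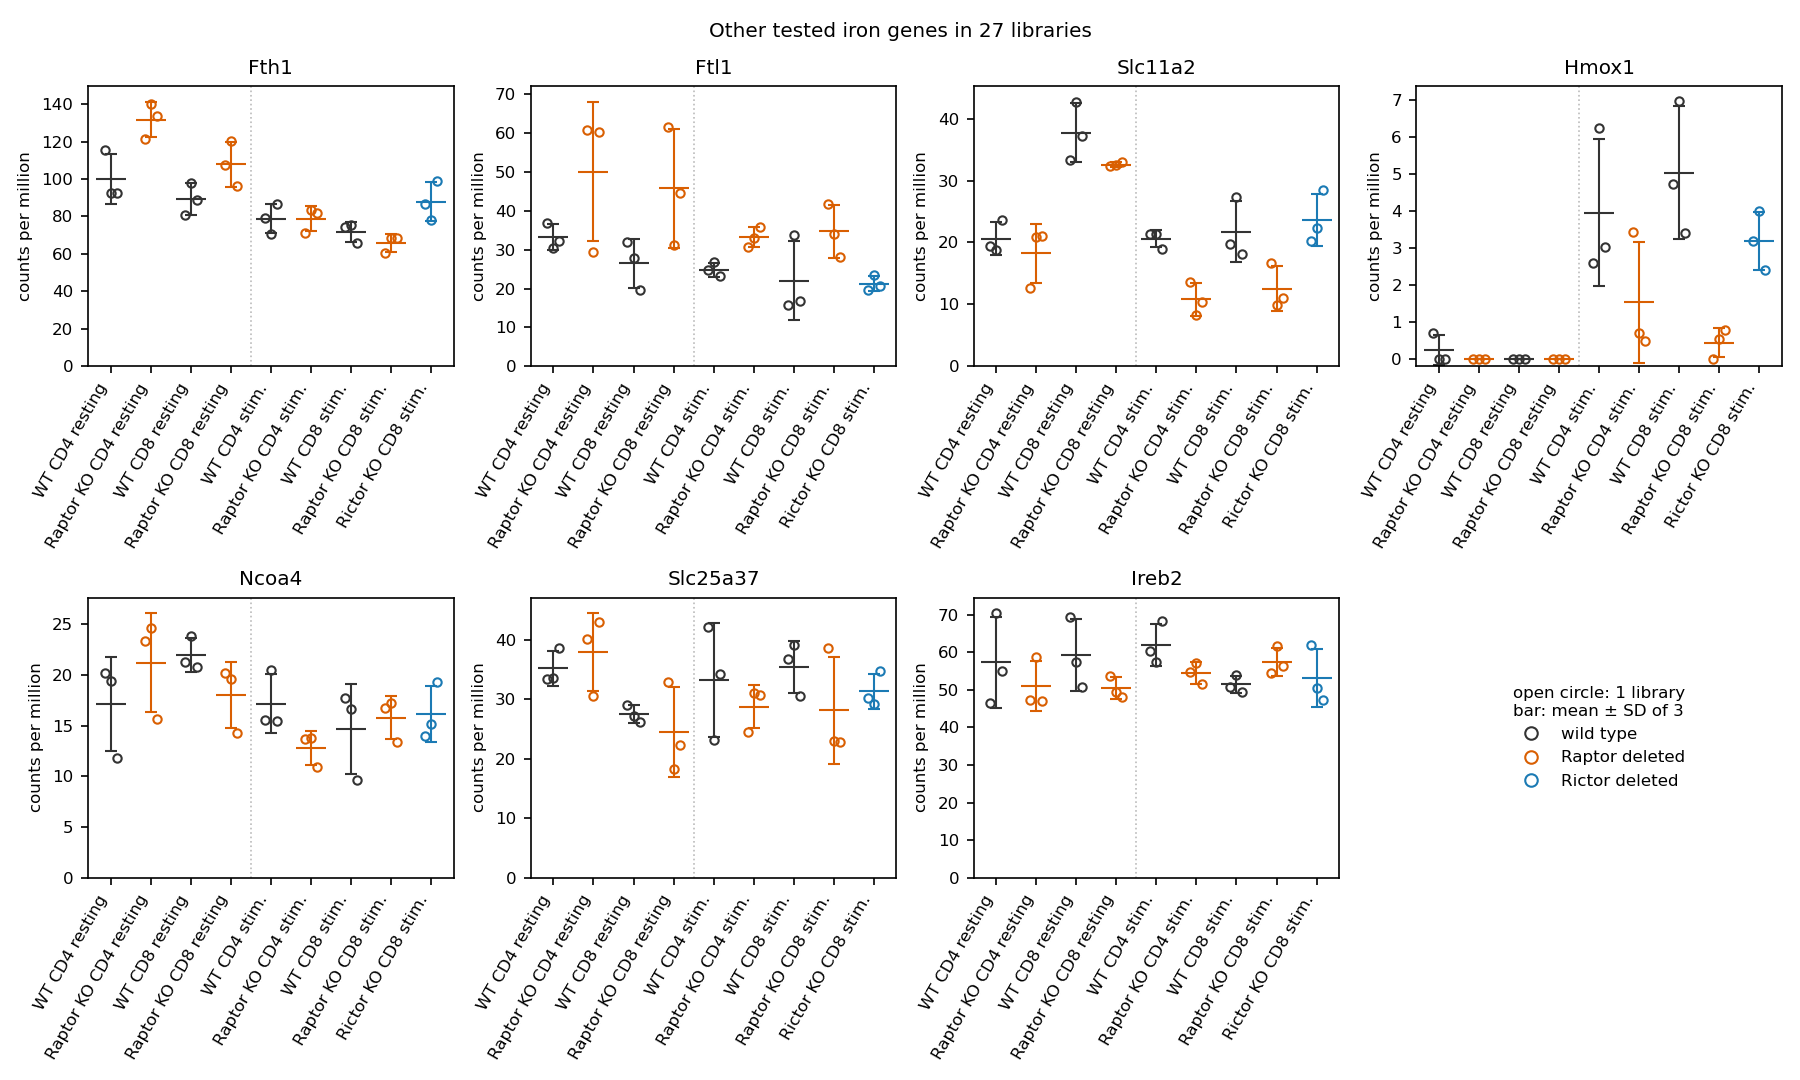
CPM in each library (open circles, linear axes) for the 7 other tested genes, with the mean and SD of 3 as bars, resting groups left and stimulated groups right of the dotted line. Slc11a2 is lowest in both stimulated Raptor KO groups, Hmox1 is at 0 in all but 1 of the 12 resting libraries, and Ireb2 stays between 46.6 and 70.4 CPM throughout.

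Hmox1 (chr8:75093621-75100589, + strand), which breaks down haem and frees its iron, was detected almost only after stimulation. In 12 resting libraries it had 1 count in all, and in WT CD8+ cells it went from 0 counts in 3 libraries to 12, 13 and 12 counts (4.73, 6.96 and 3.39 CPM). Against a floor of 3 counts over the resting group this is at least 7.15-fold higher (adjusted p = 0.000164). In WT CD4+ cells it rose from 1 to 29 counts in all (adjusted p = 0.00124), a ratio of 19.3 whose exact 95% counting interval runs from 3.20 to 788. Hmox1 had 11 counts in the 6 stimulated Raptor KO libraries. It thus passed the filter (minimum count 10) only through stimulated WT and Rictor KO libraries, where it is high. Its calls, here and below, and its place in the counts of members depend on that selection. For stimulation of WT cells it was tested in 14 alternatives, against 16 for Tfrc.

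Stimulated Raptor KO CD8+ cells had less Hmox1 than WT. The CD8+ libraries held 0, 1 and 2 counts, and none overlapped WT. The ratio of WT to Raptor KO was 8.79 (exact 95% counting interval 2.78 to 44.6, covering counting error only), and the fitted difference was -3.06 ± 0.81 on the log2 scale (adjusted p = 0.0103). In CD4+ cells the Raptor KO libraries held 6, 1 and 1 counts against 4, 14 and 11 in WT, and the difference did not pass (-1.35 ± 0.70, adjusted p = 0.184). The rise with stimulation was called in Raptor KO CD4+ cells (at least 2.36-fold, adjusted p = 0.0208). It was lost without stimulated library 1, which holds 6 of the 8 counts (adjusted p = 0.161), or resting library 2 (0.0591). In Raptor KO CD8+ cells 3 counts after stimulation against 0 at rest do not exceed the floor, and the test did not pass. Rictor KO CD8+ libraries held 10, 15 and 5 counts, and Hmox1 was higher there than in Raptor KO cells (log2 2.51 ± 0.84, adjusted p = 0.0380). That call was lost by DESeq2 (0.0658) and without any 1 Raptor KO library (0.0762 to 0.111) or Rictor KO library 1 (0.0734) or 2 (0.131). Hmox1 is abundant in macrophages, and the summed myeloid markers were 27.6 to 35.3 CPM in stimulated WT CD8+ libraries and 38.2 to 54.9 CPM in Raptor KO ones, most of it Ctss. Their part in the Hmox1 result was not tested.

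Slc40a1 (chr1:45908068-45926523, - strand), the iron exporter, had 9 counts over the 27 libraries and at most 1.07 CPM. It was below the filter and not tested, and 20 of 27 libraries had none.

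Ireb2 (chr9:54863789-54912530, + strand) encodes an iron-regulated protein that binds the hairpins above, and the protein itself was not measured. Its 27 libraries ranged from 46.6 to 70.4 CPM (median 54.4), the group means from 50.4 to 62.0 CPM, and it passed in none of the 16 comparisons. Slc25a37 (chr14:69241848-69285112, - strand), the mitochondrial iron carrier, also passed in none, with libraries from 18.2 to 43.0 CPM. Stimulation of WT CD8+ cells took it from 29.1, 27.1 and 26.2 to 36.7, 39.1 and 30.5 CPM, groups that did not overlap (log2 0.35 ± 0.21, adjusted p = 0.148).

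**Figure D3:**
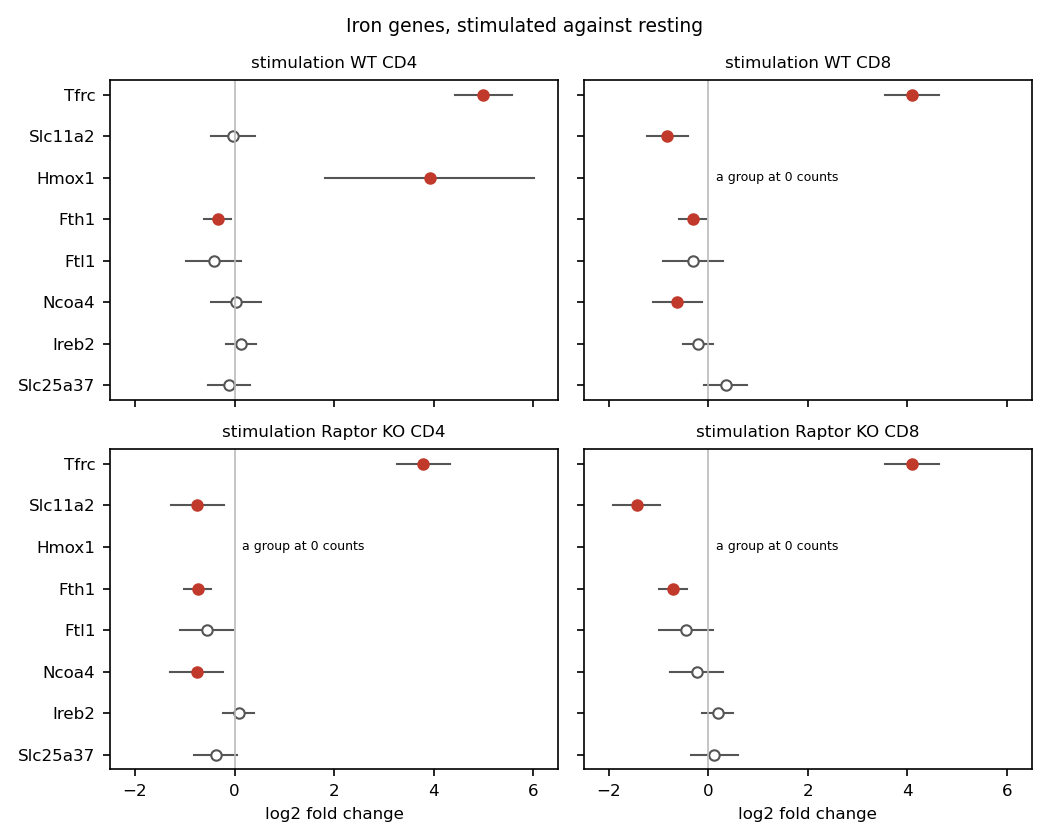
Log2 fold change, stimulated against resting, of the 8 tested genes in WT and Raptor KO cells of each subset, with 95% intervals, filled red where the adjusted p passed 0.05 and no value where a group had 0 counts. Tfrc lies at 3.79 to 4.99, and Fth1 lies below 0 in all 4 panels.

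**Figure D4:**
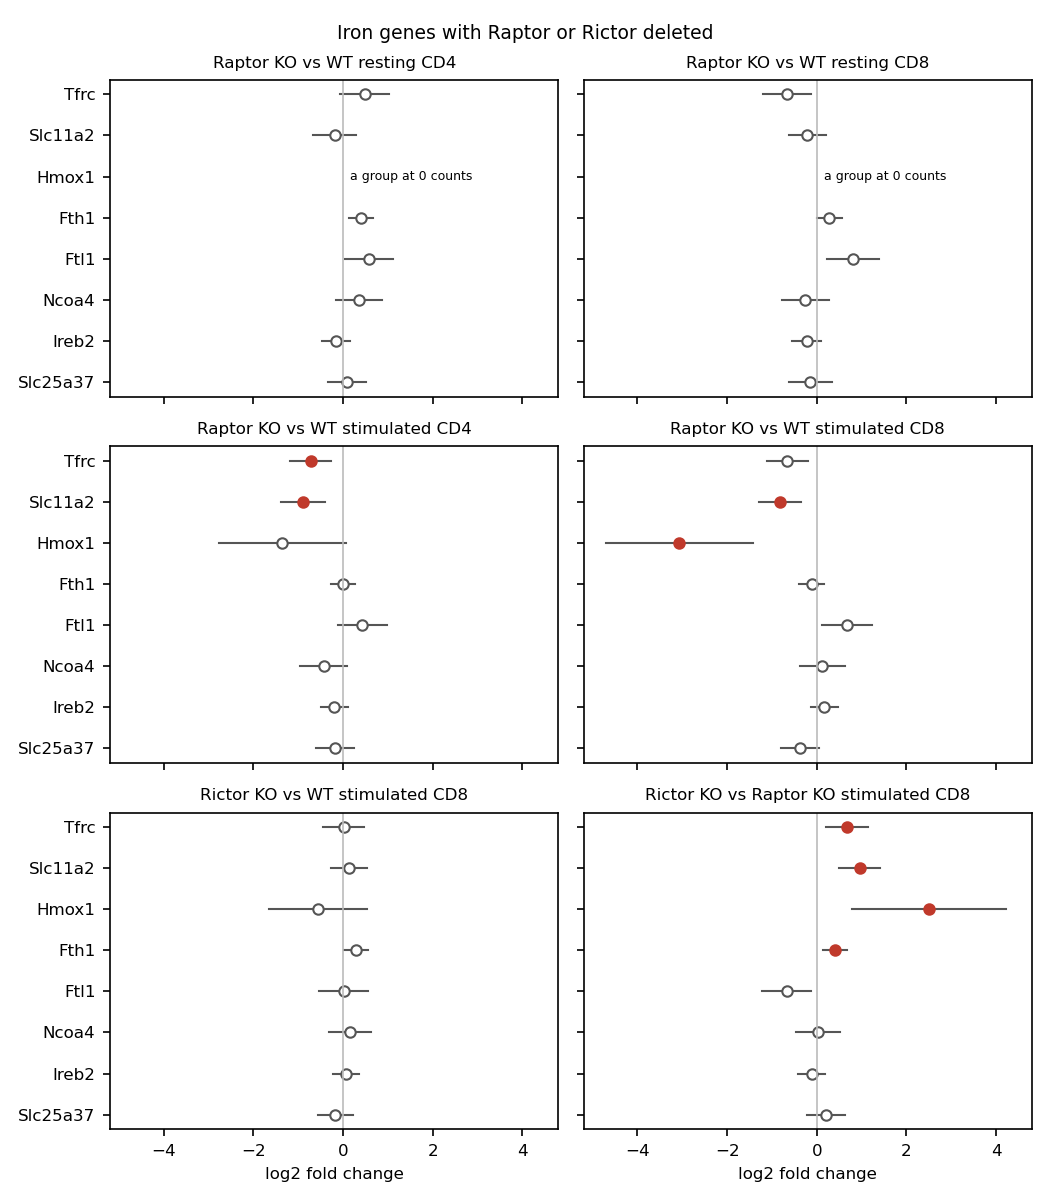
Log2 fold change of the 8 tested genes between genotypes, with 95% intervals and the same marks. In stimulated cells Tfrc and Slc11a2 lie below 0 for Raptor KO against WT in both subsets and near 0 for Rictor KO against WT.

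The effect of stimulation was compared between the WT subsets as well. None of the 8 members passed this interaction (2 at an unadjusted p under 0.05, 0 by DESeq2 and 0 by limma-voom), with 1.44% of all genes passing. The interaction of Raptor with subset in stimulated cells was passed by none either (0 at an unadjusted p under 0.05, 0 by DESeq2 and 0 by limma-voom), with 0.334% of all genes passing.

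Over the 9 group means of log2(CPM + 1), the genes most like Tfrc were Rrm1, Set, Elp2, Snrpe and Mcm3, with Pearson r of 0.998 each, as a description of 9 means that share stimulation as their main contrast. Rrm1 went from 12.9 to 272 CPM in WT CD4+ cells and stood at 184 CPM in stimulated Raptor KO CD4+ cells. Of the 6730 genes compared, 1845 had r over 0.9 with Tfrc, and 13 had with Fth1. The genes nearest to Fth1 were Wdr91 (r = 0.979), Arfgef2 (0.952), Gga3 (0.942), Sidt2 (0.941) and Vps35l (0.934).

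Other genes of iron and haem metabolism were followed in 10 lists, of which 9 had tested genes, 63 in all. Stimulation raised 27 and lowered 14 of the 63 in WT CD4+ cells and raised 28 and lowered 9 in WT CD8+ cells, where 64.9% and 62.8% of all genes changed. In Raptor KO cells it raised 23 and lowered 10 in CD4+ and raised 27 and lowered 8 in CD8+ cells, beside 52% and 55.6% of all genes. These counts lie near the shares of all genes and are not a result about iron genes, and the counts per list below are read against the same WT shares.

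Of enzymes that need iron to make and copy DNA, with their partners, 4 of 6 tested rose and 1 fell in either WT subset, with median log2 changes of 2.02 (CD4+) and 2.26 (CD8+): Rrm2, the iron-holding subunit of ribonucleotide reductase, had log2 changes of 7.00 (CD4+) and 6.34 (CD8+), and the helicase-nuclease Dna2 of 5.53 and 3.59. Rrm2b, the p53-induced subunit, fell by 2.30 and 1.26. Rrm2 was lower in stimulated Raptor KO than WT CD4+ cells by 0.71 ± 0.18 (adjusted p = 0.00621).

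In haem synthesis 4 of 8 tested genes rose in WT cells of either subset, with 2 lower in CD4+ and 1 in CD8+ cells. Alas1, the first and rate-limiting enzyme, rose by 1.38 and 1.70, Alad by 2.62 and 2.64 and Cpox by 2.04 and 1.88, while Ppox fell by 1.38 and 1.01. Uros fell in CD4+ cells by 1.51 and was at -0.55 in CD8+ cells, where it did not pass. Alas1 and Uros were chosen after their values were seen. Summed erythroid markers were 16.0, 37.4 and 4.62 CPM in resting and 2.23 to 3.89 CPM in stimulated WT CD4+ libraries. In WT CD8+ libraries they were 1.22 to 8.21 CPM at rest and 1.13 to 2.68 CPM after stimulation. Their part was not tested. Cpox rose from 6.0 ± 2.0 to 24.2 ± 6.8 CPM in WT CD4+ cells and stood at 11.3 ± 1.7 and 15.1 ± 3.5 CPM in Raptor KO CD4+ cells. Its interaction with Raptor was -1.59 ± 0.40 (adjusted p = 0.0106). Of the haem breakdown genes, Blvra rose by 1.11 and 1.56, and Hmox2 by 1.00 in CD8+ cells with 0.35 in CD4+ cells, where it did not pass. The Blvra call in CD4+ cells was lost without resting library 1 (adjusted p = 0.0857) or 2 (0.101) or stimulated library 2 (0.0620) or 3 (0.149). Without WT CD8+ resting library 3, Hmox2 was at 0.66 (adjusted p = 0.106).

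In the control of the iron regulatory proteins 3 of 7 tested genes rose and 3 fell in WT cells of either subset. Aco1, the other hairpin-binding protein, rose by 1.26 and 1.27, unlike Ireb2. Fbxl5, the iron-sensing ligase that degrades the Ireb2 protein, fell by 1.37 and 1.11, from 60.4 ± 5.6 to 23.6 ± 4.0 CPM and from 54.7 ± 7.8 to 25.4 ± 0.2 CPM. Stimulated Raptor KO CD8+ cells kept more Fbxl5, at 37.6 ± 1.6 CPM (0.57 ± 0.18 above WT, adjusted p = 0.0252). By DESeq2 that adjusted p was 0.0744, and without any 1 of WT libraries 1, 2 and 3 or Raptor KO libraries 2 and 3 it was 0.0581 to 0.108. Of the genes for ubiquitin ligases and their adaptors, Ndfip1 rose by 1.42 and 1.28 and Nedd4l fell by 2.15 and 1.63.

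In the transcriptional control of ferritin and Hmox1, the repressor Bach1 fell from 41.0 ± 3.5 to 4.4 ± 1.4 CPM in WT CD4+ and from 38.6 ± 4.9 to 5.3 ± 0.7 CPM in WT CD8+ cells (log2 -3.27 and -2.88). Nfe2l2, the activator at the same elements, fell by 1.40 and 0.90. Mafg, a small partner protein of both, rose by 0.83 and 1.50. It was already raised in resting Raptor KO cells, at 38.9 ± 10.2 against 19.5 ± 5.4 CPM in CD4+ (0.95 ± 0.21, adjusted p = 0.0460) and 44.0 ± 10.0 against 14.2 ± 4.1 CPM in CD8+ cells (1.59 ± 0.23, adjusted p = 2.69e-05). The CD4+ call held in 9 of 16 alternatives. Its losses included limma-voom (0.0771) and the fits without WT library 1 (0.244) or 2 (0.340) or Raptor KO library 1 (0.0828) or 3 (0.369).

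Of 5 tested genes of iron entry and chaperoning, 4 rose and 1 fell in WT CD4+ cells, and 4 rose in CD8+ cells. Pcbp1, which delivers iron to ferritin, rose by 1.55 and 1.47, and the metal importer Slc39a14 stood at 42.4 ± 3.1 CPM in stimulated WT and 26.5 ± 2.3 CPM in Raptor KO CD4+ cells (-0.67 ± 0.17, adjusted p = 0.00409). Mcoln1, the lysosomal channel that lets iron out, fell by 1.66 in WT CD4+ cells and was 1.20 ± 0.31 higher in stimulated Raptor KO than WT CD4+ cells (adjusted p = 0.00436). In stimulated Raptor KO CD4+ cells 2 of the 63 genes were higher (Mcoln1 and Nedd4l) and 5 lower (Slc39a14, Usp14, Rrm2, Nfs1 and Cpox), where 17.4% of all genes differed. In CD8+ cells 2 were higher (Fbxl5 and Ndfip2), where 11.7% of all genes differed. Several of these calls are fragile: of 16 alternatives the call held in 8 for Nfs1, 10 for Cpox, 11 for Nedd4l, 8 for Fbxl5 and 6 for Ndfip2. The difference came as low as 0.08 for Ndfip2 (adjusted p up to 0.907), 0.52 for Nedd4l (0.501) and 0.70 for Mcoln1 (0.314). With Rn45s kept in the totals, 2 of the 63 genes passed in CD4+ and 0 in CD8+ cells. Without WT library 2, Cpox was at -0.46 (adjusted p = 0.224), and without Raptor KO library 3, Ndfip2 was at 0.38 (adjusted p = 0.329). Nfs1 was lost without any 1 WT library (0.0693 to 0.0937) or Raptor KO library 1 (0.133) or 2 (0.147), and Nedd4l without WT library 3 (0.0848) or Raptor KO library 3 (0.0925). Cpox was lost as well without WT library 3 (0.0544) or Raptor KO library 2 (0.164) or 3 (0.0506), and Ndfip2 without WT library 1 (0.0830), 2 (0.0560) or 3 (0.173) or Raptor KO library 2 (0.0992). Rictor KO differed from WT in none (2 at an unadjusted p under 0.05, 0 by DESeq2 and 0 by limma-voom).

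The iron-sulfur lists were the longest. Of 16 tested mitochondrial genes 6 rose in WT cells of either subset, led by the transporter gene Abcb8 (2.51 and 1.97), and 2 fell in CD4+ cells. Of 9 cytosolic assembly genes 3 rose and 2 fell in CD4+ and 2 rose and 2 fell in CD8+ cells, with Ciao2a at 1.92 and 1.51. Of 4 tested haem transport genes Tmem14c rose by 1.17 and 1.10, and Abcg2 fell by 1.20 in CD4+ cells (adjusted p = 0.0297). The Abcg2 call held in 8 of 15 alternatives and was lost without resting library 2 (0.146) or 3 (0.125) or any 1 of the stimulated libraries (0.05004 to 0.0810). The list of iron export and systemic iron genes had 4 of 8 genes in the table and none above the filter.

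**Figure D5:**
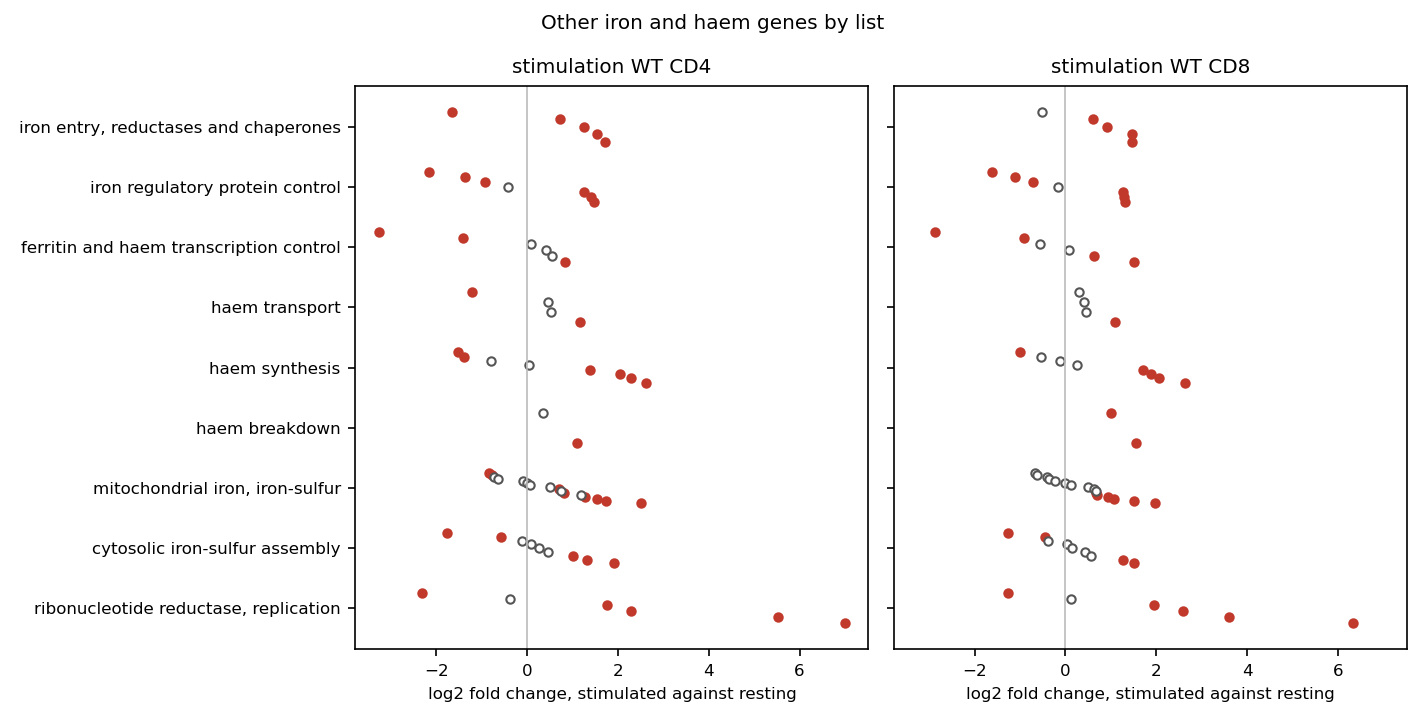
Log2 fold change with stimulation of the 63 tested companion genes in WT CD4+ (left) and CD8+ cells (right), 1 point per gene by list, filled red where the adjusted p passed 0.05. Rrm2 is the highest point in both panels (7.00 and 6.34) and Bach1 the lowest (-3.27 and -2.88).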

How the data were processed

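RNA was measured in 27 libraries of T cells, 3 per group, grouped by the labels. The values are raw read counts per gene that the authors deposited for the whole series. STAR 2.6.0a and GRCm38 are named as aligner and build per the submitters' processing notes. How reads were counted, with which annotation and on which strand, is not given in the sources used here. Live cells were sorted as negative for MFG-E8 binding and a viability dye; the labels and the series text name different dyes. Of 26802 IDs, 26765 matched GENCODE M21. Rn45s, 81.1% to 88.4% of counts, was left out before scaling.

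Genes were filtered with filterByExpr (minimum count 10, minimum total 15), leaving 10493, scaled by TMM and tested with edgeR 4.0.16 (quasi-likelihood, 1 mean per group over all 27 libraries, Benjamini-Hochberg at 0.05) in R 4.3.3. The fit was tested on simulated data for Raptor KO against WT in stimulated CD4+ cells. Of genes changed by 1 on the log2 scale 41.7% of 96 were called, and of those changed by 2 92.6% of 95. Of 9695 unchanged genes 0.0722% were called. Smaller differences of the members can thus be missed. Every simulated gene had the same spread and few were changed, while 17.4% of tested genes were called in the data. These rates are therefore those of the simulation and not of the data. The alternatives tried were no filter on low counts, median-ratio size factors, a filter of 5 CPM in 3 libraries, DESeq2 1.42.0, limma-voom (limma 3.58.1), Rn45s kept in the totals, protein-coding genes only, the compared groups alone, a replicate block, the library code as a block for Rictor KO, each library left out, and, chosen after seeing the data, counts of ferritin pseudogenes added to Fth1 and Ftl1.

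The members and lists were chosen with earlier results of these data known. Named companion genes are the first 3 of a list, the 3 largest called changes per list and comparison with a mean of at least 5 CPM; for likeness, the 5 protein-coding genes of at least 10 CPM with the highest r. Not every gene this rule allows is printed. Alas1 falls within it as the first gene of its list, and Uros falls outside it. T cell markers summed to 548 to 1424 CPM, B cell markers to 2.74 to 22.5 CPM and NK cell markers to 0.446 to 53.8 CPM. Replicate pairs differed by more than counting error (chi-square per degree of freedom 2.68 to 49.3), so none was treated as copies of 1 library. That check cannot tell whether the libraries came from separate animals.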

Additional observations from a re-analysis of the deposited data

Results flagged for a closer look

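Responses to stimulation that differed between Raptor KO and WT cells, by the interaction in edgeR's quasi-likelihood test, were those of 4 genes. In CD4+ cells these were Tfrc, the transferrin receptor (log2 difference -1.20 ± 0.35, adjusted p = 0.0403), Cpox of haem synthesis (-1.59 ± 0.40, adjusted p = 0.0106) and Fbxl5, the iron-sensing ligase (0.83 ± 0.25, adjusted p = 0.0366). In CD8+ cells it was Mafg, a partner of Bach1 and Nfe2l2 (-1.36 ± 0.29, adjusted p = 0.00394), whose mean was 44.0 ± 10.0 CPM at rest and 47.7 ± 2.9 CPM after stimulation in Raptor KO cells. Of 22 alternatives the Cpox and Mafg differences each held in 21 and were lost with Rn45s kept in the totals (adjusted p = 0.227 and 0.187). The Fbxl5 difference held in 10 of 22. It missed the threshold with median-ratio size factors (0.0506), no filter (0.159), DESeq2 (0.0667), Rn45s in the totals (0.850) and the compared groups alone (0.0706), and when 1 of 7 libraries was left out, WT resting 1 or 2, WT stimulated 2 or 3, Raptor KO resting 3 or Raptor KO stimulated 1 or 2 (0.0642 to 0.116).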

How the results depend on the processing

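Stimulation raised Tfrc in all 4 comparisons under every alternative run. Keeping Rn45s in the totals moved the median of all genes, by 0.75 for stimulation in WT CD8+ cells and by -0.50 and -0.52 for Raptor KO in stimulated CD4+ and CD8+ cells. Members called then numbered 3 for stimulation of WT CD8+ cells and 2 each for WT CD4+, Raptor KO CD4+ and Raptor KO CD8+ cells. They numbered 2 for Rictor against Raptor KO, and 0 both for resting CD8+ against CD4+ and for the CD4+ interaction. In WT CD8+ cells Fth1 (0.45, adjusted p = 0.325) and Ncoa4 (0.15, adjusted p = 0.787) changed sign. With no filter, counts were 3 for stimulation of WT CD8+ cells, 1 for resting Raptor KO CD8+ cells and 1 for stimulation by subset; DESeq2 gave 3 for stimulation of WT CD8+ cells, and limma-voom 1 for resting CD8+ against CD4+ cells. Leaving out 1 library gave 3 to 5 members for stimulation of WT CD8+, 3 to 4 of Raptor KO CD4+, 1 to 2 for Raptor KO in stimulated CD4+ and in CD8+ cells, 1 to 3 for Rictor against Raptor KO, 0 to 2 for resting subsets and 0 to 1 for the CD4+ interaction. Of the 63 companion genes, 2 passed the CD4+ interaction, 1 with median-ratio size factors, no filter, DESeq2 or the compared groups alone, and 0 with Rn45s in the totals, where the CD8+ interaction also had 0 in place of 1. In WT CD8+ cells the falls of Nfe2l2 (-0.11, adjusted p = 0.837) and Nedd4l (-0.86, adjusted p = 0.0914) were lost with Rn45s in the totals. Causes were not tested.

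Replicate numbers did not pair the samples in every comparison, and the main fit held no term for them. In 0 of 12 comparisons did every same-numbered pair correlate above 0.1 (range -0.30 to 0.47). Of 36 pairs 18 matched best with their own number, 1 of 6 in the Rictor KO comparisons. All 3 did so for stimulation of WT CD4+ cells (r 0.25, 0.05 and 0.30) and between resting WT subsets (0.17, 0.09 and 0.31). In the WT and Raptor KO groups each number also carries 1 library code (StP212, StP213 and StP219 in order), whose meaning the labels do not give, so the block on the number is there a block on the code. With a replicate block 1 member passed between resting subsets in place of 2 (Tfrc 0.93, adjusted p = 0.0578). Depth limits Hmox1, Steap3 and Slc40a1 most.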
